A study of Homo sapiens with 3 samples.

Results

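The genes described here encode the nuclear subunits of oxidative phosphorylation, the 5 enzyme complexes of the inner mitochondrial membrane that oxidise NADH and succinate and make ATP. They were measured in HT-29, an epithelial line grown from a human colon adenocarcinoma, after 24 h with 200 U/ml of interferon-γ (IFN-γ), a cytokine of T and NK cells. All 3 arrays came from treated cultures, which the series calls biological replicates, and no untreated cultures were analysed here, so each value is a level in treated cells and none is a response to IFN-γ. Members were the genes whose symbol is NDUFA, NDUFB, NDUFC, NDUFS or NDUFV with a number (or NDUFAB1), SDHA to SDHD, or begins with UQCR, COX4 to COX8 or ATP5. This rule found 67 of the 11963 genes that had a probe set with a single symbol, on 100 of 19065 such probe sets: 28 genes of complex I, 3 of complex II, 6 of complex III, 13 of complex IV and 17 of complex V. A further 7 probe sets carry a member symbol together with another symbol and were not used. Among the 67 matches, 3 are not subunits as such: ATP5MC2P1 is a pseudogene, ATP5IF1 is the inhibitor of the ATP synthase, and COX7A2L helps complexes III and IV associate.

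Complex I passes electrons from NADH, and complex II from succinate, to ubiquinone. Complex III hands them to cytochrome c and complex IV to oxygen, while complexes I, III and IV pump protons whose return through complex V drives ATP synthesis. A few subunits of complexes I, III, IV and V are encoded by mitochondrial DNA, and the nuclear genes supply all others. Some subunits of complex IV exist as separate genes for heart and skeletal muscle and for other tissues. Transcription factors known to act on nuclear genes of this group include NRF-1, GABP, which belongs to the ETS family, and YY1.

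The names had first to be placed on the values. Under the deposited order, paired log2 signals (2 probe sets for each of 4310 genes) correlated with r = 0.19, a value across genes rather than across replicates. The order used here gave r = 0.60, and among 3001 uniform displacements the highest was r = 0.50, at 487 rows. Members alone did not show this: across the 21 members with several probe sets r was 0.03 in the order used and 0.27 as deposited. Their levels did differ, with a median log2 signal over the 100 member probe sets of 11.53 in the order used and 8.19 as deposited. This order was inferred from these values, and every gene value below depends on it.

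The arrays had median signals of 137, 144 and 141 in replicates 1, 2 and 3, and their number limits the precision of every value. A fraction of 11.5%, 12.6% and 15.5% of the summed signal came from the 100 brightest probe sets, the most in replicate 3. The background limit, above which few genes foreign to the tissue lie, was a signal of 237, 181 and 174. All 10 epithelial markers were detected above it by limma, as were all 9 measured IFN-γ target genes. Of 37 measured markers of T and NK cells, B cells, myeloid cells, fibroblasts and endothelium 2 were detected, the lysozyme gene LYZ, which some epithelia also express, and the collagen gene COL1A1. In bulk RNA, fewer cells of a type and less RNA per cell cannot be told apart.

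Nearly all members were detected. By limma (one-sided, adjusted by Benjamini-Hochberg), 64 of 67 genes (95.5%) lay above the limit, beside 41.9% of all 11963 genes. The median member lay 4.17 log2 units over the limit and the median of all genes lay at -0.02. Every gene of complexes I (28 of 28), II (3 of 3) and III (6 of 6) was detected, as were 11 of 13 of complex IV and 16 of 17 of complex V. The members that did not pass were COX6A2 and COX7A1, both isoforms of muscle, and the pseudogene ATP5MC2P1. Signals of different probe sets also depend on the probes, so the distance to the limit is given per gene and no order among genes is read from it. Without moderation of the variance limma detected 61 of 67 members, beside 33.0% of all genes, and then NDUFA7 (adjusted p = 0.0507), NDUFB7 (0.0691) and ATP5F1D (0.0702) did not pass.

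**Figure D1:**
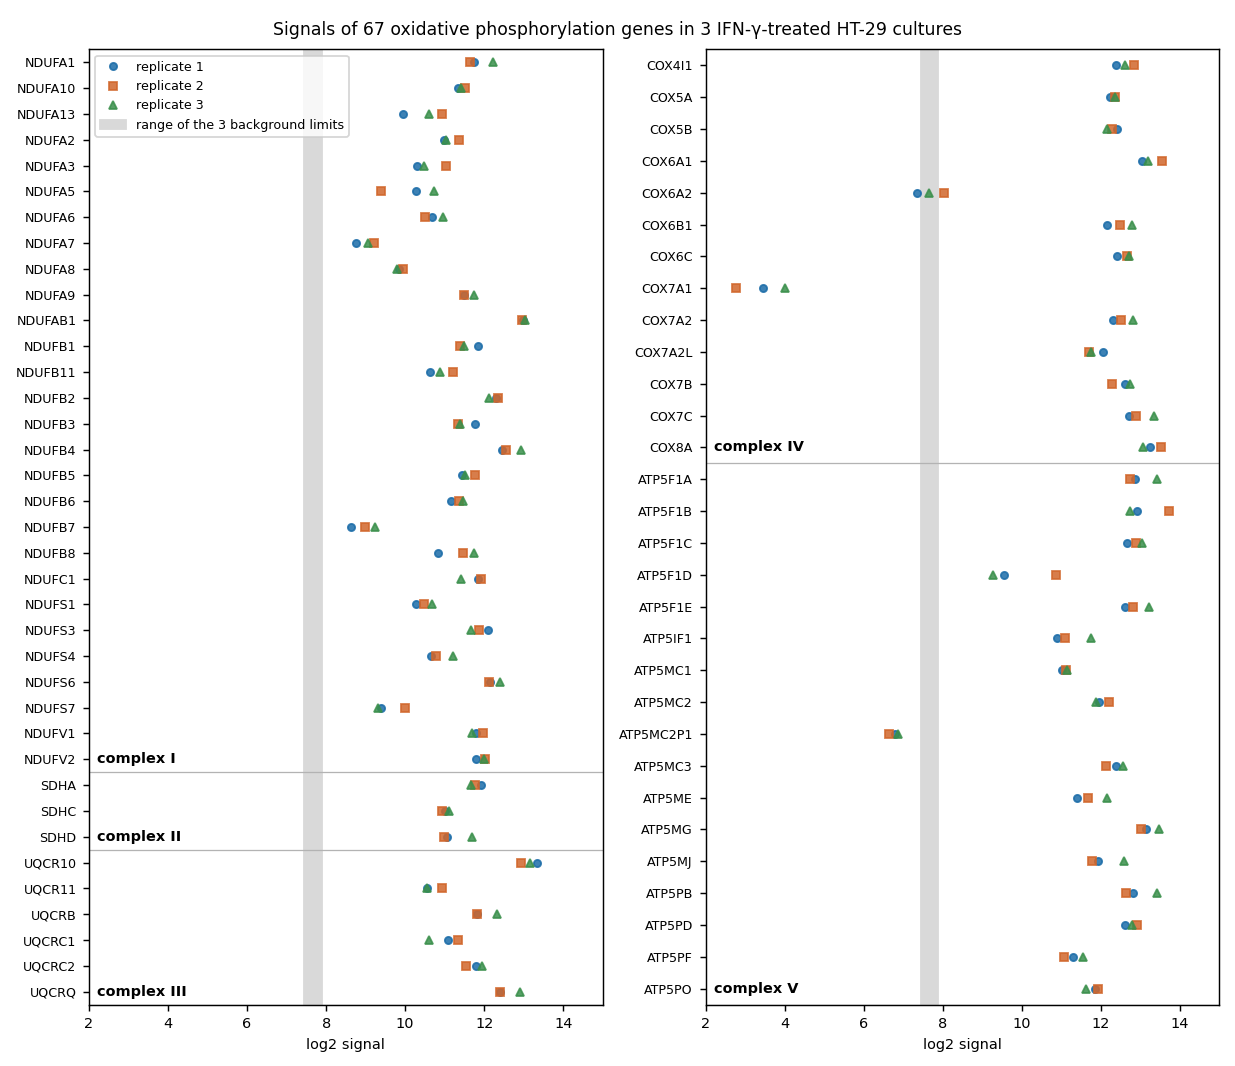
Log2 signal of each of the 67 genes in replicates 1, 2 and 3 (circles, squares, triangles), grouped by complex. The grey band spans the limits of the 3 arrays: the signals of 64 genes lie to its right on every array, those of COX6A2 lie around it, and those of ATP5MC2P1 and COX7A1 lie left of it.

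Complex IV, cytochrome c oxidase, holds the isoform pairs. COX6A1, the form of subunit VIa found in most tissues, had signals of 8497, 11905 and 9381 in replicates 1, 2 and 3. Its muscle counterpart COX6A2 had 162, 260.3 and 200.0, above the limit in replicates 2 and 3 and under it in replicate 1. COX6A1 lay 5.65 ± 0.16 log2 units over the limit (SE, limma with 1 common limit, which called 42.3% of all genes, adjusted p = 1.9e-07), and COX6A2 lay at 0.06 ± 0.22 (adjusted p = 0.824). COX6A2 was therefore not separated from background in either direction, and without replicate 2 it lay at -0.18.

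Subunit VIIa also has a widely expressed and a muscle form. COX7A2, the widely expressed form, had signals of 5107, 5849 and 7159, and its muscle form COX7A1 had 11.0, 6.85 and 16. All arrays placed COX7A2 above the limit and COX7A1 below it. The muscle forms COX6A2 and COX7A1 were each read from 1 probe set. A dim probe set alone cannot be told from a gene that is not expressed. COX7A2 lay 4.93 ± 0.16 log2 units over the limit (SE, limma with 1 common limit, adjusted p = 2.0e-07) and COX7A1 lay at -4.20 ± 0.43 (adjusted p = 1).

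The promoter windows of the COX6A pair are shown because these genes differ in detection, and those of SDHA and UQCR10 because they hold the motif of NRF-1. Each window runs from 250 bases before to 50 after the annotated start, 5′ to 3′ on the gene's strand, from RefSeq (GRCh38.p14). Capitals mark matches to 3 motifs on either strand, as described with the motif counts.
COX6A1 (chr12:120437863-120438162, plus strand): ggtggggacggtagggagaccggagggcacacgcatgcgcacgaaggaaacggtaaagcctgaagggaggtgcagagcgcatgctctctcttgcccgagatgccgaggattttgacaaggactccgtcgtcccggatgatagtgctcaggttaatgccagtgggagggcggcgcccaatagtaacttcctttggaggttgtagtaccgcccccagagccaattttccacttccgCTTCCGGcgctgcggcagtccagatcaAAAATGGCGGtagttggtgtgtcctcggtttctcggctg
COX6A2 (chr16:31428311-31428610, minus strand): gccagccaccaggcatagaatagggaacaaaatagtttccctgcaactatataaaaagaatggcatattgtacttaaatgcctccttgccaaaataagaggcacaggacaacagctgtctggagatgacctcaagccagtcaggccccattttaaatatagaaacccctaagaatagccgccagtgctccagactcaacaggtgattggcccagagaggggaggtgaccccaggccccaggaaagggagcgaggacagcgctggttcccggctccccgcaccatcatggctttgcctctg
SDHA (chr5:218070-218369, plus strand): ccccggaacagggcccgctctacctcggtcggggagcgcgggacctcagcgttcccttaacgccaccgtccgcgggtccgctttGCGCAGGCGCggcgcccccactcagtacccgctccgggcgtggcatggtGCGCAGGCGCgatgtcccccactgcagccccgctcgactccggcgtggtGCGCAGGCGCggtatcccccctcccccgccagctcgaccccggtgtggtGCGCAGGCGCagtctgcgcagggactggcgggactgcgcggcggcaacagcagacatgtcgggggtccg
UQCR10 (chr22:29767119-29767418, plus strand): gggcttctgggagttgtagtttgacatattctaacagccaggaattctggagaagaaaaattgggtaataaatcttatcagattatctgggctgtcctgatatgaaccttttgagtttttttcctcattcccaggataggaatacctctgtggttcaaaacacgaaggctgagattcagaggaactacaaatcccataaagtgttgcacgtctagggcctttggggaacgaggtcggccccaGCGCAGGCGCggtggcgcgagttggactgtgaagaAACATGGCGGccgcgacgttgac

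The detected COX6A1 has 1 match to the ETS motif and 1 to the YY1 motif near its start, whereas the window of COX6A2 has 0 matches to any of the 3. The COX6A1 window also has 22 CpG dinucleotides and a GC content of 58.7%, and that of COX6A2 has 5 and 52.0%. The window of the detected COX7A2 has 0 matches, 0 CpG and a GC content of 37%. Any of the 3 motifs is held by 32 of the 57 detected members with a window (56.1%), beside 25.6% of measured genes. Of the members not detected only COX6A2 has a window, so matches and CpG cannot be set against detection here. 

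Other subunits of complex IV were all detected. COX4I1, which takes part in regulation of the enzyme, had signals of 5340, 7370 and 6253. COX5A, a subunit on the matrix side, had 4839, 5269 and 5230.0, and its replicate SD of 0.07 log2 units was among the smallest of the members. COX5B, also a matrix-side subunit, had 5484, 4976 and 4534. These subunits stayed well above the limit on every array. COX6B1, which faces the intermembrane space, had 4566, 5688 and 7092, lowest in replicate 1 and highest in replicate 3. The small membrane subunits COX7B, with 6206, 4972 and 6839, and COX7C, with 6661, 7535 and 10483, were highest in replicate 3 on these probe sets, while COX7C's probe set without a suffix gave 1238, 1208 and 901 and was lowest there. COX8A, another small membrane subunit, had 9768, 11826 and 8603, highest in replicate 2. COX7A2L, the association factor, had 4252, 3348 and 3430.

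In complex I, the detected genes covered its parts. Of the subunits that carry the reaction itself, NDUFV1, which binds NADH and flavin, had signals of 3522, 4006 and 3282. NDUFV2, an iron-sulfur subunit beside it, had 3543, 4184 and 4097, and NDUFS1, with several iron-sulfur clusters, had 1231, 1425 and 1639. NDUFS7, an iron-sulfur subunit near the quinone site, had 674, 1024 and 639. NDUFV1, NDUFV2, NDUFS1 and NDUFS7 lay between 1.96 and 4.33 log2 units over the limit, and NDUFS3, another core subunit, lay 4.27 over it.

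Accessory subunits of complex I were all detected. NDUFAB1, the mitochondrial acyl carrier protein, had 8031, 8003 and 8351, and its SD of 0.03 log2 units was the smallest of the detected members. NDUFB2 had 5042, 5178 and 4444, and NDUFB4 had 5612, 5993 and 7775. All of these were more than 4.6 log2 units over the limit. NDUFA7 had 433, 591 and 533 and NDUFB7 had 397, 507 and 607. NDUFA7 lay 1.40 ± 0.17 and NDUFB7 1.34 ± 0.18 log2 units over it (SE, limma with 1 common limit, adjusted p = 0.000147 and 0.000277). NDUFA13, also called GRIM-19 and first described for its part in cell death under interferon and retinoic acid, had 994, 1956 and 1562, lowest in replicate 1. NDUFA5, an accessory subunit of the matrix arm, varied more, with 1247, 671 and 1708, lowest in replicate 2 and highest in replicate 3.

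Complex II, succinate dehydrogenase, is encoded by nuclear genes alone. Its flavoprotein SDHA had signals of 3839, 3496 and 3276. The membrane anchors were SDHC, with 2062, 1939.7 and 2206, and SDHD, with 2116, 2018 and 3288. On these probe sets SDHA and SDHC stayed within 1.17-fold and 1.14-fold between the highest and the lowest array. SDHD was highest in replicate 3 by 1.63-fold over the lowest. Another probe set of SDHC gave 2267, 1949.5 and 1907, highest in replicate 1. The rest gave 869, 920 and 1135, and 864, 894 and 1286, highest in replicate 3, the last by 1.49-fold over the lowest. SDHA and SDHC were read from probe sets of the cross-hybridising _x_at type, to which related sequences can contribute.

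In complex III, cytochrome bc1, the core proteins faced opposite ways in replicate 3. UQCRC1 had signals of 2151, 2568 and 1547 in replicates 1, 2 and 3, and UQCRC2 had 3528, 2979 and 3915. UQCRC1 was lowest and UQCRC2 highest in replicate 3, a difference that 1 array cannot test. Among the small subunits, UQCR10 had 10355, 7753 and 9078, and UQCR11 had 1505, 1941 and 1506. UQCRB had 3625, 3603 and 5158 and UQCRQ had 5371, 5396 and 7616. These probe sets were highest in replicate 3, but the other probe sets of UQCRB, with 2864, 2730 and 2721 and with 346, 173 and 285, were highest in replicate 1.

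Complex V, the ATP synthase, joins a catalytic F1 head to a membrane rotor. Of the head, ATP5F1A (subunit alpha) had signals of 7479, 6880 and 10997, and ATP5F1B, the catalytic subunit beta, had 7708, 13500.0 and 6808. Alpha was highest in replicate 3 and beta in replicate 2. ATP5F1D (subunit delta) had 752, 1859 and 622, a 2.99-fold range and the largest SD of the detected members, 0.84 log2 units. It lay 2.29 ± 0.30 log2 units over the limit (SE, limma with 1 common limit, adjusted p = 0.000207). ATP5F1B followed among the large spreads in this complex, with an SD of 0.53, and NDUFA5 of complex I had 0.69.

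The rotor ring of subunit c is encoded by 3 genes whose mature proteins are the same, and all 3 were detected. ATP5MC1 had signals of 2084, 2231 and 2281, within 1.09-fold of each other. ATP5MC2 had 3945, 4737 and 3782, and ATP5MC3 had 5375, 4448 and 6075. ATP5MC1 was the steadiest of these genes, with an SD of 0.07 log2 units. The pseudogene ATP5MC2P1 had 111, 100.5 and 116 and its margin to the limit was -0.85 ± 0.24 log2 units (SE, limma with 1 common limit, adjusted p = 1). The other complex V genes were detected throughout: ATP5MG, a membrane subunit, had 9071, 8305 and 11357. The inhibitor ATP5IF1 had 1897, 2179 and 3469, and the peripheral stalk subunit ATP5PB had 7180.1, 6367 and 10935. ATP5MG, ATP5IF1 and ATP5PB were all highest in replicate 3.

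Members with several probe sets often had one at or near background. Of the 21 such members, 11 had every probe set above the limit in all replicates, 10 had some but not all, and 0 had none. The same split over all genes with several probe sets is not given here. Counted singly, 87 of 100 member probe sets were above the limit in all replicates, beside 39.0% of all probe sets. Over all member probe sets 87 of 100 passed limma's test, beside 38.7% of all probe sets. COX4I1 is an example: its _x_at probe set gave the signals above, its _s_at probe set gave 2963, 3325 and 3276, and its probe set without a suffix gave 76.6, 21.9 and 21.2. The probe set of COX5B without a suffix likewise gave 108, 15.1 and 24.1, and that of ATP5MC2 gave 127, 20.4 and 24.9. These 3 dim probe sets have names without a suffix and were brightest in replicate 1. Among probe sets without a suffix that marks shared or cross-hybridising designs, 36 of 45 members were detected, beside 36.9% of all genes so read, and COX4I1, COX5B and ATP5MC2 then had margins of -2.25, -2.19 and -1.96 log2 units. Taking the median over probe sets as the gene's value, 61 of 67 members passed, beside 39.7% of all genes, and NDUFA5, NDUFB7 and SDHD no longer did.

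**Figure D2:**
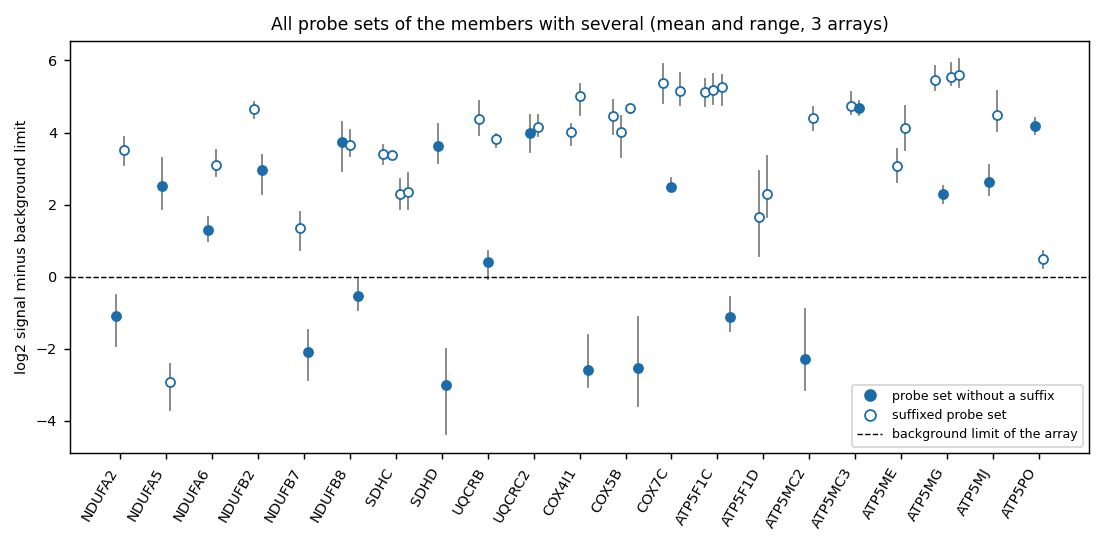
Log2 signal minus the limit of the array for each probe set of the 21 members with several (point: mean of 3 arrays, line: range, open: suffixed probe set). In 10 genes a probe set reaches or lies under the limit on at least 1 array while another lies above it on all 3.

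The 3 cultures gave close values for most members. The median SD of log2 signal over detected members was 0.23 (quartiles 0.16 and 0.31), beside 0.29 over all detected genes. Of 64 detected members 2, NDUFA5 and ATP5F1D, differed by more than 2-fold between their highest and lowest array, beside 15.4% of all detected genes. To compare genes of like brightness, members were also set beside the 657 other detected genes lying between the members' quartiles of 3.51 and 4.94 log2 units over the limit. In that band the median SD was 0.21 over 32 members and 0.25 over the other genes.

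Many members had their lowest signal in replicate 1. Among 64 detected members, 30 (46.9%) had their lowest signal in replicate 1, beside 18.5% of all detected genes, and 14 (21.9%) had it in replicate 3, beside 44.9%. Of the same genes, 33 (51.6%) were highest in replicate 3, beside 34.1% of all detected genes. Their median deviation from a gene's own mean was -0.14 in replicate 1, 0.00 in replicate 2 and 0.08 in replicate 3, and over all detected genes it was 0.04, 0.00 and -0.05. Each culture is a single sample, so no test was made.

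By complex, the counts were as follows, with no test between complexes. In complex V 11 of 16 detected genes were highest in replicate 3 and 0 in replicate 1, with a median deviation of 0.23 in replicate 3. These counts rest on each gene's probe set of highest mean. The other probe set of ATP5MC3, with 5252, 5299 and 4471, was lowest in replicate 3. Those of ATP5MJ and ATP5ME were highest there. In complex I 15 of 28 were lowest in replicate 1, and 13 were highest in replicate 2 and 12 in replicate 3. In complex IV 7 of 11 were lowest in replicate 1, with a median deviation of -0.19. In the band of like brightness above, 50% of the 32 members and 44.3% of the other genes were highest in replicate 3. In that band 37.5% of the members and 19.6% of the other genes were lowest in replicate 1. Quantile normalization, which gives all arrays the same distribution, left the members' median deviation at -0.09 in replicate 1 and 0.05 in replicate 3. Of 13 housekeeping genes, among them ACTB, GAPDH and RPL19, 10 were lowest in replicate 1 and 11 highest in replicate 3, and 7 of 10 epithelial markers were lowest in replicate 1. The part of brightness and of differences shared with these lists in the members' order of replicates was not tested.

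**Figure D3:**
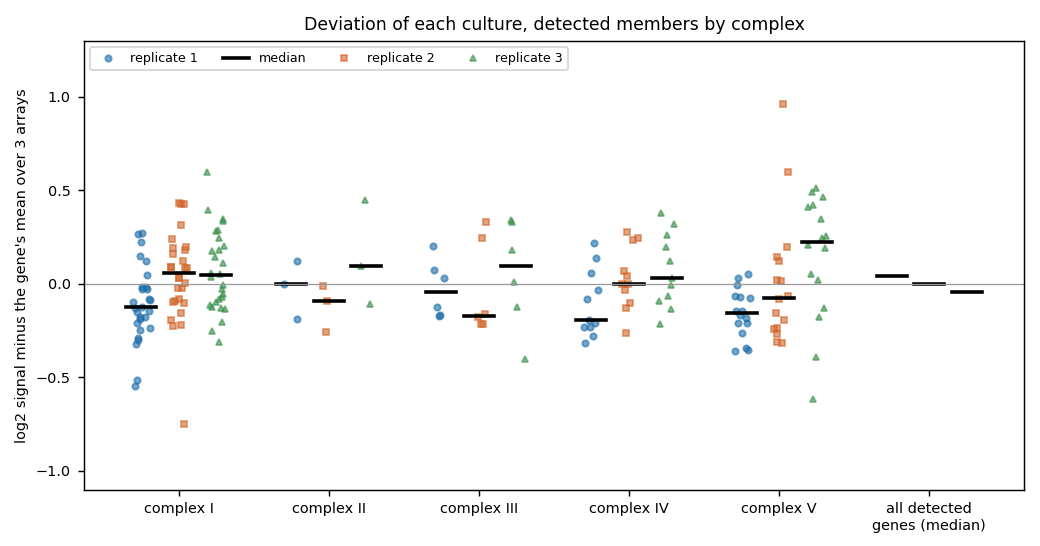
Log2 signal of each detected member minus its mean over the 3 arrays, by complex and replicate (points: genes, bars: medians), with the medians over all detected genes at the right. Members of complex V sit highest in replicate 3 (median 0.23), while the medians over all genes stay between -0.05 and 0.04.

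Genes around the pathway were detected in part. Of 55 listed assembly factors, proteins that build the complexes without remaining in them, 29 were measured. Among these 23 (79.3%) passed limma's test, beside 41.9% of all genes, and the median factor lay 1.63 log2 units over the limit. For complex IV 10 of 11 passed. Among them were SURF1, with signals of 711, 898 and 492, and COX10, which acts in heme A synthesis, with 1288, 1172 and 701. Those of complexes II and III gave 2 of 2 and 3 of 3. For complex I 7 of 10 passed, and NDUFAF5, NDUFAF7 and NUBPL did not. NUBPL was a borderline case, with 300.5, 260.8 and 308, above the limit in every replicate. With 1 common limit it did pass (limma, adjusted p = 0.0221). For complex V 1 of 3 passed: TMEM70 had 2354, 1729 and 2024, and ATPAF2 and TMEM242 were not detected.

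Electron carriers and the dehydrogenases that feed ubiquinone were detected for 5 of 8 genes (62.5%), beside 41.9% of all genes. Cytochrome c (CYCS) had signals of 10500.0, 9883 and 14050.0, and SQOR, which oxidises sulfide, had 1517, 1523 and 1431. ETFDH, GPD2 and PRODH were not detected. GPD2, the mitochondrial glycerol phosphate dehydrogenase, had 305, 175 and 361 and was above the limit in replicates 1 and 3 (limma with 1 common limit, adjusted p = 0.124). DHODH, the dehydrogenase of pyrimidine synthesis, which also feeds ubiquinone, passed with 328, 386 and 413.

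Genes that copy and express mitochondrial DNA or regulate mitochondrial gene expression were detected for 12 of 16 (75%), beside 41.9% of all genes. TFAM, which packages and transcribes mitochondrial DNA, had signals of 1283, 823 and 1562, and ESRRA, a nuclear receptor that acts on genes of this pathway, had 769.6, 1221 and 797. NRF1, which encodes NRF-1, had 236, 219.5 and 216, above the limit in replicates 2 and 3, and did not pass (limma with 1 common limit, adjusted p = 0.376). PPARGC1A, the coactivator PGC-1alpha, was at background with 22.3, 4.77 and 39.9. GABPA, the DNA-binding subunit of GABP, had 182, 92.6 and 235 and did not pass, whereas its partner GABPB1 had 1241, 914 and 807 and did. A level near background on these probe sets gives no measure of the protein.

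**Figure D4:**
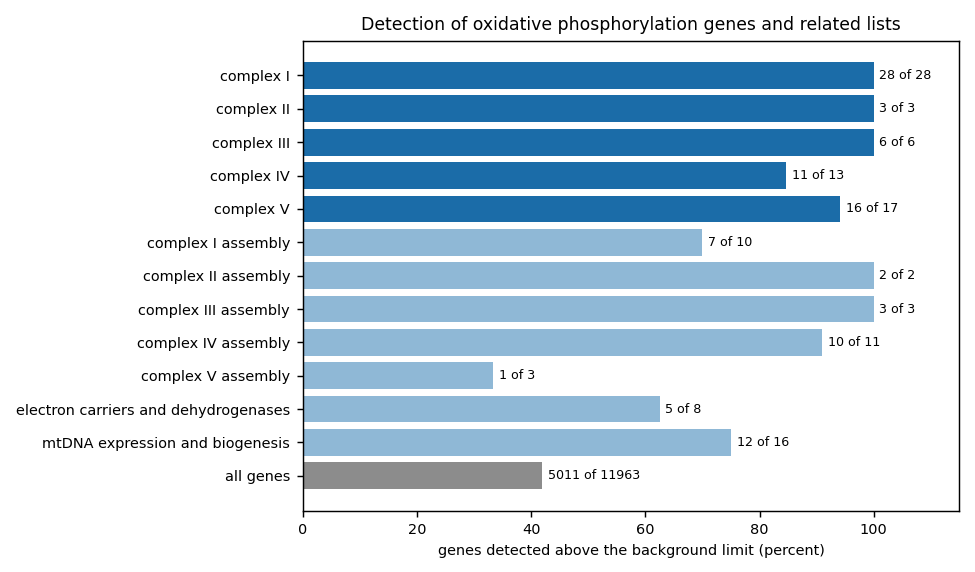
Percent of measured genes detected above the limit by limma, with counts, for the 5 complexes (dark), related lists (light) and all genes (grey). The complexes range from 11 of 13 to all genes detected, and 5011 of 11963 genes were detected in all.

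Promoter windows were found for 58 of 67 members. Of these, 22.4% held the NRF-1 motif, 29.3% the ETS motif and 20.7% the YY1 motif, with both strands searched. The letters were GCGC, any base and TGCGC for NRF-1, CCGGAAG for ETS, and AA, any base and ATGGCGG for YY1. These shares were 9.47%, 15.2% and 4.03% over 9563 windows of measured genes, and 6.28%, 10.7% and 2.26% over all 27305 windows of the same length. At least 1 of the 3 was present in 32 members (55.2%), beside 25.6% of measured genes and 17.2% of all windows. In 4 members both the ETS and the YY1 motif were present, and in 0 of them did the matches overlap, although the letters allow it. Over all windows with both, the matches overlapped in 2 of 139. The NRF-1 motif also overlapped neither of the others in any member, with 3 members holding it beside ETS and 3 beside YY1. Over all windows these pairs overlapped in 2 of 345 and 0 of 87, so overlap was rare in general. A match is a run of letters, not a site shown to be bound. The SDHA window printed above has 4 matches to the NRF-1 motif, and that of UQCR10 has 1 NRF-1 and 1 YY1 match. By complex, with no test between complexes, 8 of 27 windows of complex I had the YY1 motif, 0 of 11 of complex IV had the NRF-1 motif and 5 of 11 had the ETS motif. Of complex III 3 of 5 windows and of complex II 2 of 2 had the NRF-1 motif. No order of signals was compared with these matches.

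**Figure D5:**
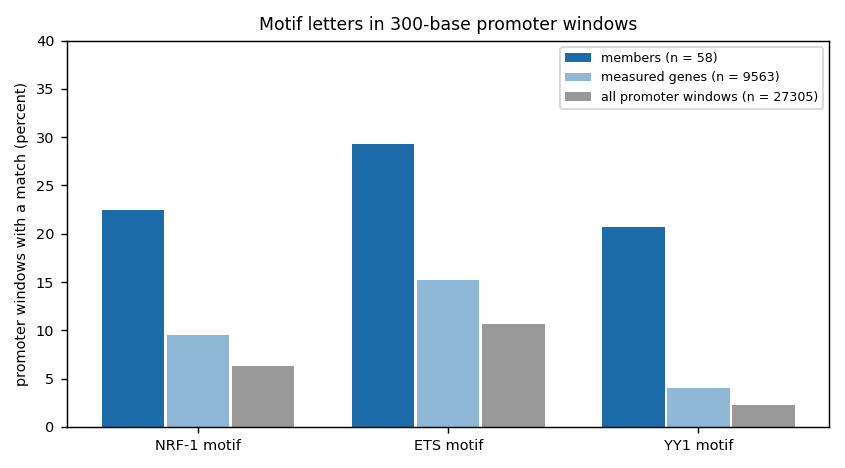
Percent of promoter windows with at least 1 match to each motif, for the members, for measured genes and for all windows in the table. For each of the 3 motifs the bar of the members is the highest, at 22.4%, 29.3% and 20.7%.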

How the data were processed

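Affymetrix arrays of 3 HT-29 cultures were used. The authors' values are linear signal intensity per probe set, and the submitters' processing notes name MAS5 and Affymetrix Expression Console 1.1. With 2% of values trimmed from each end, every array averaged 500.3, so the deposited intensity values had been scaled to a common level. The background step is not given in the sources used here.

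Values filled 22277 of 22283 rows. The names were placed on them as follows: 15 unnamed values, a run of 100 consecutively numbered probe sets, 493 with lower numbers, 21622 others in file order, then 47 unnamed values. The platform annotation gave 1 symbol for 19065 of these probe sets, naming 11963 genes, and 1043 probe sets with several symbols were left out. Symbols updated through the Entrez ID (RefSeq table of GRCh38.p14, names alone) changed 0 of them.

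No pseudocount was added before log2. Each gene was read from its probe set of highest mean. Each array's limit was set at the 95th percentile over 70 genes known from other tissues. Signal minus limit (log2) went into limma 3.58.1 under R 4.3.3, with trended variance, tested one-sided and adjusted by Benjamini-Hochberg over all genes, with a threshold of 0.05. The limit was treated as known. The fit estimated a prior so strong that all genes shared 1 variance curve (median of 23926 degrees of freedom per gene), against 8.32 without the trend and 7.29 and 11.3 with other percentiles, and the cause was not tested. Its calls were kept, but the adjusted p-values printed are from the same fit with 1 common limit or from the fit without moderation. The fit used is named beside each value. The fit with 1 common limit was added after seeing the data. Alternatives were the order of names, probe set choice, limit, scaling, an offset of 16, variance prior and each replicate left out.

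Genes named were all members not past the threshold, the 3 furthest and 2 nearest to the limit among detected members of each complex, the 3 with the largest and the 3 with the smallest replicate SD, and members with isoforms. Other members named were chosen after their values were seen. Members and lists were chosen with earlier results of these data known. Nothing in the labels says more than that the cultures were biological replicates, so p-values rest on the spread between these 3 arrays. Unless moderation is left out, that spread is shared over genes. With 1 common limit the median was 6.96 degrees of freedom per gene, against 2 without moderation.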

Additional observations from a re-analysis of the deposited data

How the results depend on the processing

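The count of 64 detected members was the same with the 90th or 99th percentile limit, quantile normalization and an offset of 16. It was also the same with no variance trend, 1 common limit and each replicate left out. In all of these the same 3 genes failed. Updating the symbols changed 0 of them, so that alternative could not differ from the main fit. Names as deposited gave 420 of 11963 genes, 3 of 67 members and, for complexes I to V, 1, 0, 0, 1 and 1, with a median margin of -2.91 and, over those 3 members, a median SD of 0.48 and deviations of -0.25 in replicate 2 and 0.56 in replicate 3. One uniform displacement gave 62 members and a median margin of 3.88, with UQCRC1 at -0.98. Some names then sit on other values than in the order used here. Without suffixed probe sets 3082 of 8361 genes and 36 of 45 members passed, in complexes I, II, IV and V 18 of 20, 1 of 1, 7 of 11 and 6 of 9, where fewer genes are tested. COX4I1 was then at -2.25, COX5B at -2.19, ATP5MC2 at -1.96 and NDUFB7 at -1.76, and with the median over probe sets NDUFB7 was at -0.0857. Per probe set complexes II and V gave 6 of 7 and 26 of 29. The median margin was 4.61 with the 90th and 3.79 with the 99th percentile limit, under which COX6A2 lay at -0.33. With 1 replicate left out COX6A2 ranged from -0.18 to 0.36. Left out singly, the replicates gave a median SD between 0.16 and 0.23. Without the 3 matches that are not subunits 62 of 64 passed. The causes of these differences were not tested. No paired analysis was possible because there is 1 group. Linear MAS5 signals near the limit, as for COX6A2 and NRF1, bound what can be called.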
